A study of Mus musculus with 7 samples.

Results

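Integrins are the cell surface receptors for extracellular matrix, and laminins, collagen IV, nidogens and perlecan are the main components of the basement membrane, the thin sheet under every epithelium. The genes described here are 44 named genes of these families with the proteins of the hemidesmosome, listed by symbol. They were chosen with earlier results of these data known. All 44 were among the 23955 gene names counted, and 42 of them passed the filter on low counts and were tested among 13768 genes. Itga4, the alpha4 integrin chain, had 0 to 2 counts per library and Lamc3, a laminin gamma chain, had 0 to 6, and neither was tested.

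The data are RNA sequencing counts of 7 cell lines of mouse esophageal epithelium, of mixed strain background. The 3 mutant lines had the missense allele p53R172H and the label 4NQO, a carcinogen (4-nitroquinoline 1-oxide) used to induce esophageal tumors. The 2 null lines, numbered 1 and 3, lacked p53 (p53 -/-) and had the same 4NQO label, and the 2 WT lines were wild type with no such label. Genotype and the 4NQO label therefore cannot be told apart in any comparison with WT. All lines were kept on plastic in keratinocyte serum-free medium.

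An integrin is a pair of one alpha and one beta chain. In a stratified epithelium such as that of the esophagus, the basal cells hold to laminin-332 through integrin alpha6beta4, which plectin and dystonin link to keratin filaments in the hemidesmosome, with collagen XVII beside it and collagen VII anchoring the sheet to the tissue below. Integrin alpha3beta1 binds the same laminins, and the beta1 chain pairs with many alpha chains. In the sheet itself laminin trimers and a collagen IV network are joined by nidogens and perlecan.

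Total counts were 47000225, 41325469 and 42754434 in mutant 1, 2 and 3, 33598210 and 25469853 in the null lines, and 31283848 and 12751118 in the WT lines. The 44 genes held 1.51, 1.22 and 0.977% of counts in the mutant lines and 1.01 and 1.33% in the null lines, against 1.56 and 1.96% in the WT lines. Trp53 stood at 8.73 and 4.71 CPM (TMM-normalized read counts scaled to the library size) in the null lines and between 171.6 and 253.9 CPM in the other lines. All 10 basal epithelial markers checked, Krt5 and Trp63 among them, were detected in every line. Their summed level was 9392 to 13495 CPM in the mutant lines and 9054 and 12314 CPM in the null lines, against 34486 and 45411 CPM in the WT lines. The summed level of 15 fibroblast markers was 1029, 81.7 and 459 CPM in the mutant lines and 29.5 and 646 CPM in the null lines, against 24.7 and 33.5 CPM in the WT lines. In bulk RNA, fewer cells of a type and less RNA per cell cannot be told apart.

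In the mutant lines 3 of the 42 tested genes were lower than in WT and 1 was higher, by edgeR's quasi-likelihood test at an adjusted p under 0.05. Plec, Lama3 and Itgb6 fell, and Lamb2 rose. These 4 genes are 9.52% of the 42, beside 7.42% of all genes tested, with lower calls at 7.14% beside 4.13% and higher calls at 2.38% beside 3.3%. By this test and threshold the share called was close to that of all genes. At an unadjusted p under 0.05 by the same test there were 18 (42.9%, beside 30.5% of all genes). DESeq2 called 18 of the 42, beside 23.2% of all genes. The levels in CPM of mutant and WT lines did not overlap for 25 of the 42 (13 higher, 12 lower), or 59.5%. Over all genes this share was 52.6% (26.9% higher, 25.7% lower). The median log2 fold change of the 42 was 0.52, beside 0.08 over all genes. Of the 42, 26 were above 0, beside 7496 of all 13768 genes. None of these genes was called without mutant 2 or mutant 3, beside 0.271% and 0.044% of all genes. Without mutant 1, 8 were called, beside 10.6% of all genes (Col7a1, Itga2, Itgb7 and Lamb3 beside the 4). Fits without a WT or null line leave 1 line in that group, so their calls are not given here. Leaving out each library in turn, the log2 fold change was -1.47 to -1.20 for Plec and -2.52 to -1.86 for Lama3. It was 2.06 to 2.48 for Lamb2 and -3.83 to -2.66 for Itgb6.

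In the null lines 0 of the 42 genes were called against WT by edgeR, beside 0.138% of all genes (0.0726% higher, 0.0654% lower). At an unadjusted p under 0.05 there were 12 (28.6%, beside 20.2% of all genes), and DESeq2 called 10, beside 11.3% of all genes. Null and WT lines did not overlap for 24 of the 42 (12 in each direction), or 57.1%, beside 56.1% of all genes (29.1% higher, 27.1% lower). The median log2 fold change was 0.38, beside 0.06 over all genes. Again 26 of the 42 were above 0, beside 7379 of 13768 over all genes. Both comparisons use the same WT lines.

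**Figure D1:**
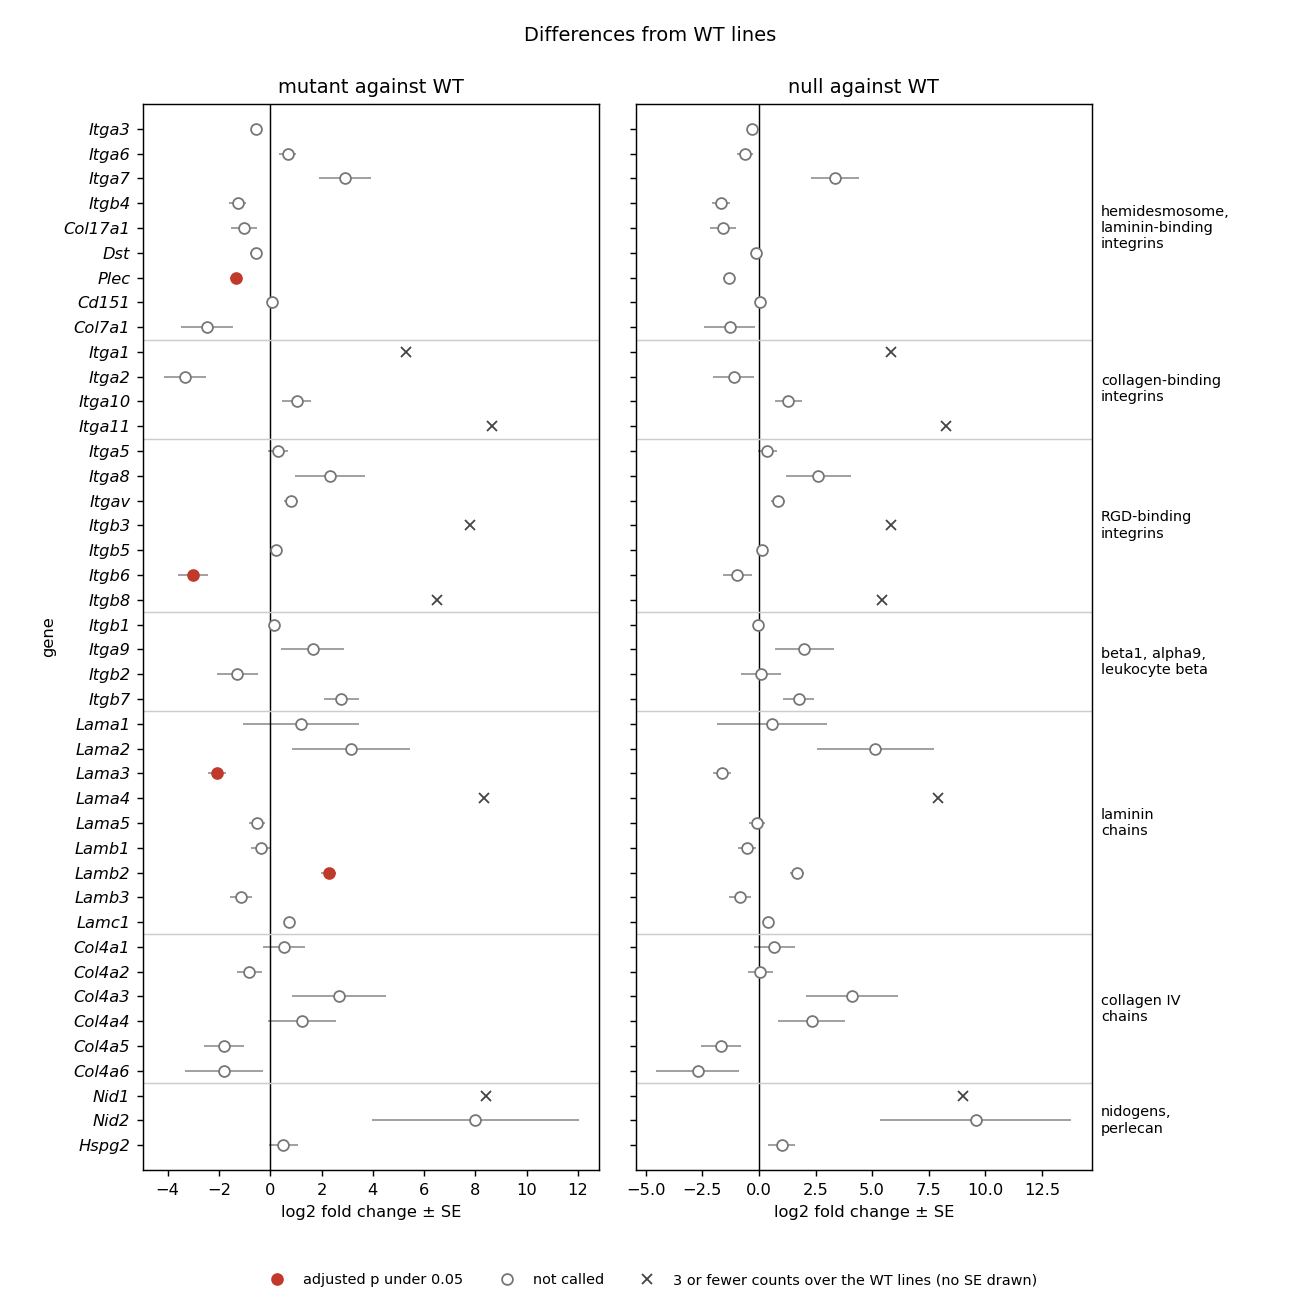
Log2 fold changes of the 42 tested genes, mutant against WT (left) and null against WT (right), with standard errors as bars and genes grouped by role down the page. Filled points passed an adjusted p of 0.05, and crosses mark genes with 3 or fewer counts over both WT lines, whose fitted value depends on the prior count and is no bound. The 4 filled points are Plec, Itgb6, Lama3 and Lamb2, all in the left panel.

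Of the 9 genes of the hemidesmosome and its laminin-binding integrins, 1 was called lower and 0 higher in mutant lines than in WT. Over all genes 4.13% were called lower and 3.3% higher. The median log2 fold change of the 9 was -0.57, with 3 above 0, beside 0.08 and 7496 of 13768 over all genes. Plec, which encodes plectin, had 535, 578 and 391 CPM in the mutant lines and 429.5 and 569.6 CPM in the null lines, against 1175 and 1357 CPM in the WT lines. Each mutant and null line was below both WT lines by a wide margin. The log2 fold change of Plec was -1.34 ± 0.23 (SE) in mutant against WT, with adjusted p = 0.0302 by edgeR's quasi-likelihood test, and -1.34 ± 0.26 in null against WT, where adjusted p = 0.0995 by the same test. Itgb4, the beta4 chain that pairs only with alpha6, had 919.8, 800.3 and 775 CPM in the mutant lines and 388 and 882 CPM in the null lines, against 1771 and 2253 CPM in the WT lines. Again no mutant or null line reached the WT lines. Its log2 fold change of -1.27 ± 0.341 in mutant against WT missed the threshold by edgeR's test (adjusted p = 0.0668), as did -1.66 ± 0.389 in null against WT (adjusted p = 0.121). DESeq2 called Itgb4 in both comparisons, and edgeR with only the groups compared called it in mutant against WT.

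Itga6, the alpha6 partner of Itgb4, had 1083, 1869.6 and 1269 CPM in the mutant lines and 417 and 713 CPM in the null lines, against 811 and 944 CPM in the WT lines. The mutant lines were all above the WT lines and the null lines all below them. The log2 fold change was 0.68 ± 0.329 in mutant against WT (edgeR adjusted p = 0.211) and -0.63 ± 0.355 in null against WT (edgeR adjusted p = 0.347). Itga3, the alpha3 chain of the other laminin-332 receptor, had 1343, 1102 and 1125 CPM in the mutant lines and 1329.5 and 1510.4 CPM in the null lines, against 1634 and 1833 CPM in the WT lines. All mutant and null lines were a little below both WT lines, with log2 fold changes of -0.54 and -0.29 that did not pass.

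Levels of these chains can be compared with each other per kilobase of transcript. On that scale Itgb4 was 0.404, 0.427 and 0.380 times as high as Itgb1 in the mutant lines and 0.233 and 0.454 times in the null lines, against 1.0 and 1.14 times in the WT lines. Itgb1, the beta1 chain shared by most matrix receptors, itself differed little, with 1398, 1153 and 1253 CPM in the mutant lines and 1021 and 1192 CPM in the null lines, against 1088 and 1211 CPM in the WT lines. The ratio of Itga6 to Itga3 per kilobase was 0.909, 1.91 and 1.27 in the mutant lines and 0.353 and 0.533 in the null lines, against 0.560 and 0.581 in the WT lines. The mutant lines were above WT in this ratio and the null lines below it. The ratios rest on the longest annotated transcript of each gene, and they describe RNA, not receptor pairs on the cell surface.

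**Figure D2:**
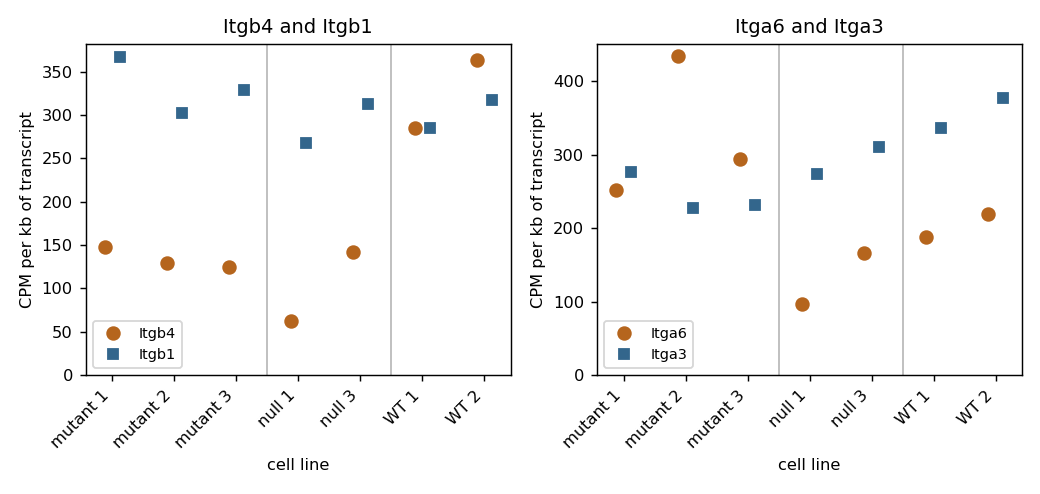
Levels in CPM per kilobase of transcript of Itgb4 and Itgb1 (one panel) and of Itga6 and Itga3 (the other) in each cell line. The pair Itgb4 and Itgb1 stood at nearly the same level in the WT lines, while Itgb4 was below Itgb1 in every mutant and null line.

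Among the other hemidesmosome genes, Col17a1 (collagen XVII) had 2976, 1479.9 and 983 CPM in the mutant lines and 1581 and 893 CPM in the null lines, against 2883 and 4565 CPM in the WT lines, and mutant 1 was above WT 1. Col7a1, the collagen of anchoring fibrils, had 233, 25.5 and 21.1 CPM in the mutant lines and 271 and 150.04 CPM in the null lines, against 422 and 615 CPM in the WT lines. All mutant and null lines were below both WT lines, but mutant 2 and 3 were far below mutant 1, and the log2 fold change of -2.47 ± 1.023 in mutant against WT did not pass. Dst, which encodes the plakin dystonin, had 1168, 995 and 863 CPM in the mutant lines and 1320.1 and 1404 CPM in the null lines, against 1318 and 1683 CPM in the WT lines, with the mutant lines below both other groups. Cd151, a tetraspanin that associates with laminin-binding integrins, lay between 160.7 and 229.8 CPM in every line. Itga7, a laminin-binding chain best known from muscle, had 35.2, 7.57 and 17.6 CPM in the mutant lines and 6.73 and 48.3 CPM in the null lines, against 2.93 and 2.35 CPM in the WT lines. It was above WT in all mutant and null lines, with log2 fold changes of 2.92 ± 1.01 and 3.37 ± 1.07 that did not pass, and it was highest in mutant 1 and null 3, the lines with the highest sums of fibroblast markers. Null 3 also had the muscle genes Myod1, Myog, Des and Actc1 at 23.0, 29.0, 26.0 and 13.9 CPM. The other lines had at most 0.610 CPM of any of them. Acta1, a muscle actin gene, did not follow this pattern. It had 2.77, 0.783 and 0.574 CPM in the mutant lines and 1.07 and 23.4 CPM in the null lines, against 12.4 and 22.2 CPM in the WT lines. The part of fibroblast-like or muscle-like cells in the Itga7 level was not tested.

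Of 9 laminin chains tested, 1 was called lower and 1 higher in mutant lines than in WT, beside 4.13% and 3.3% of all genes. Their median log2 fold change was 0.72, beside 0.08 over all genes. Lama3, the alpha chain of laminin-332, had 622, 351 and 269.8 CPM in the mutant lines and 591 and 555 CPM in the null lines, against 1604 and 1903 CPM in the WT lines. Its highest level in any mutant or null line was less than the lower WT level. Its log2 fold change was -2.08 ± 0.348 in mutant against WT (edgeR adjusted p = 0.0289) and -1.61 ± 0.393 in null against WT (edgeR adjusted p = 0.126). Lamb3, the beta chain of the same trimer, had 916, 537 and 297 CPM in the mutant lines and 805 and 624 CPM in the null lines, against 1211 and 1353 CPM in the WT lines. Its lines did not overlap with WT either, but the log2 fold change of -1.14 ± 0.43 in mutant against WT did not pass.

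Lamb2, the beta2 chain that replaces beta1 in some laminins, moved the other way, with 109, 176 and 134 CPM in the mutant lines and 73.1 and 109 CPM in the null lines, against 31.9 and 25.3 CPM in the WT lines. Every mutant and null line was well above the higher WT line. Its log2 fold change was 2.29 ± 0.295 in mutant against WT (edgeR adjusted p = 0.0212) and 1.67 ± 0.304 in null against WT (edgeR adjusted p = 0.0913). Lamb1, the beta1 chain, had 467, 300.3 and 435 CPM in the mutant lines and 223 and 493 CPM in the null lines, against 484 and 558 CPM in the WT lines, with all mutant lines below WT and null 3 between the WT lines. Lamc1, the gamma1 chain found in most laminins, had 326, 393 and 328 CPM in the mutant lines and 241 and 314 CPM in the null lines, against 239 and 185 CPM in the WT lines, with a log2 fold change of 0.72 ± 0.205 in mutant against WT that did not pass (edgeR adjusted p = 0.0759). Lama5, the alpha chain of laminin-511, overlapped between all groups, at 307 to 608 CPM in mutant and 466 and 649 CPM in null lines, against 580.4 and 618 CPM in WT lines.

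The promoter letters of Lamb2 and Itgb6 are shown because they are the called genes with an entry in the RefSeq promoter table (build GRCm38.p6). That table held 31 of the 44 genes, with 36 windows of 250 bases before a start. The Lamb2 window lies on chromosome 9, plus strand, at chr9:108479612-108479856, and both Itgb6 windows, for separate starts, lie on chromosome 2, minus strand, at chr2:60722644-60722853 and chr2:60673712-60673943. Annotated UTR bases were taken off the printed part. Capitals mark CACCTG, the E-box that ZEB and SNAIL factors read.
Lamb2: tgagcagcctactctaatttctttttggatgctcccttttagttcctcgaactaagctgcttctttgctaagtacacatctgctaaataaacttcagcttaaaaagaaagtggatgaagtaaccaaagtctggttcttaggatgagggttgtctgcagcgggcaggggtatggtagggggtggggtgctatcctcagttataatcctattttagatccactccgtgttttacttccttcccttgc
Itgb6, upstream start: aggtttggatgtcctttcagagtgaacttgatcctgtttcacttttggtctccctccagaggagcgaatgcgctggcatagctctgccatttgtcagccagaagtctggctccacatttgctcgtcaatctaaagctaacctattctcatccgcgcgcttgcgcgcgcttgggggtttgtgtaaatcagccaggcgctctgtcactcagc
Itgb6, downstream start: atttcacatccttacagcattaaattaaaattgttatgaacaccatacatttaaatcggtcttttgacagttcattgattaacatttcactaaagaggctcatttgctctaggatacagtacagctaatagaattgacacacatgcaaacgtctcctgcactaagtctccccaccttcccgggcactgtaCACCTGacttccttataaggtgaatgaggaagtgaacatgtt
On both strands, CACCTG was found in 11 of the 36 windows (30.6%), beside 17.2% of 32851 windows of the same length. The AP-1 motif TGANTCA was in 0 of 36, beside 6.75%, and the GC box GGGCGG in 16 of 36 (44.4%), beside 32.7%. The printed Lamb2 window and the first Itgb6 window held none of the 3 motifs, and the second Itgb6 window held 1 CACCTG. These matches describe letters in a window and say nothing of binding.

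The remaining laminin alpha chains were low in the epithelial lines and differed between lines of a group. Lama4, an alpha chain of vessels and connective tissue, had 16.1, 0.308 and 13.6 CPM in the mutant lines and 3.01 and 11.7 CPM in the null lines, against 0 and 0.0812 CPM in the WT lines. Over each group it was 432-fold higher in mutant than in WT lines (exact 95% interval 77.4 to 17074, counting error only) and 287-fold higher in null lines (51.2 to 11354), with 1 count over both WT lines. Without WT 1 these ratios were 128 and 84.7, and without WT 2, which held that count, the bounds were 101 and 67.4. The null ratio was 126 without null 3 and 488 without null 1. Mutant 2 had far less than the other mutant lines, and edgeR's test did not call the gene (adjusted p = 0.0736 in mutant against WT). DESeq2 called Lama4 in both comparisons with WT. Lama2, the alpha chain of muscle and nerve laminins, was at 0.610, 0.0475 and 5.32 CPM in the mutant lines and 0.152 and 15.7 CPM in the null lines, against 0.204 and 0.244 CPM in the WT lines. Lama1, an alpha chain of early embryos, was at or below 1.67 CPM in all lines.

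**Figure D3:**
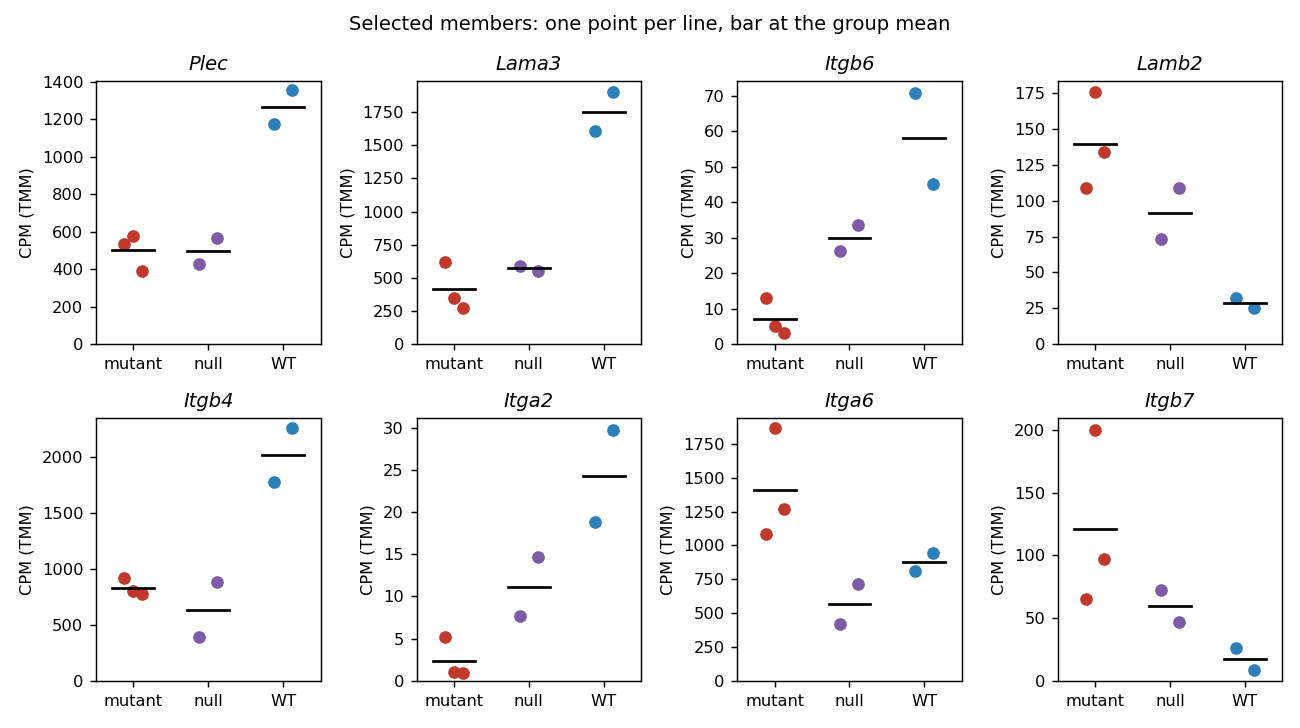
Levels in CPM of 8 genes in each cell line, 1 point per line with a bar at the group mean, mutant lines first, then null and WT. Plec, Lama3 and Itgb6 are lower and Lamb2 higher in all mutant lines than in the WT lines.

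The 7 RGD-binding chains take part in receptors for fibronectin, vitronectin and latent TGF-beta. In mutant against WT, 1 of them was called lower and 0 higher, beside 4.13% and 3.3% of all genes. The log2 fold change was above 0 for 6 of the 7, beside 7496 of 13768 over all genes. Itgb6, the epithelial beta6 chain that with alphav activates latent TGF-beta, had 13.1, 5.03 and 3.23 CPM in the mutant lines and 26.3 and 33.5 CPM in the null lines, against 70.8 and 45.3 CPM in the WT lines. Every mutant line was below every null line, and every null line below both WT lines. Its log2 fold change was -3.03 ± 0.583 in mutant against WT (edgeR adjusted p = 0.0362), and -0.96 ± 0.633 in null against WT (edgeR adjusted p = 0.416). Without mutant 1 the mutant against WT value was -3.83, and leaving out any 1 library gave -3.83 to -2.66. Its partner Itgav had 274, 194 and 216 CPM in the mutant lines and 190.5 and 269.8 CPM in the null lines, against 159.8 and 99.5 CPM in the WT lines, higher in all mutant and null lines than in WT, with log2 fold changes of 0.81 ± 0.283 and 0.83 ± 0.304 that did not pass.

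Itgb8, the other activator of latent TGF-beta, had 1.32, 0.688 and 5.0 CPM in the mutant lines and 0.0304 and 2.20 CPM in the null lines, against 0.0340 and 0 CPM in the WT lines. With 1 count over both WT lines, the mutant level was 96.5-fold higher (exact 95% interval 17.2 to 3823) and the null level 41.6-fold higher (7.18 to 1669), although null 1 had a level like that of WT 1. With 1 count each, null 1 and WT give no ratio without null 3. The null ratio was 91.8 without null 1, and without mutant 3 the mutant ratio was 42.9. Without WT 1 no WT count was left, and the bounds were 9.5 for mutant and 4.09 for null lines. Itgb3, the beta3 chain of vitronectin receptors, had 1.81, 0.190 and 0.436 CPM in the mutant lines and 0.152 and 0.266 CPM in the null lines, against 0 and 0 CPM in the WT lines. It had 0 counts in WT, so it was at least 12-fold higher in mutant lines and at least 2.82-fold higher in null lines, against a floor of 3 counts over the group. Mutant 1 held 89 of the 116 mutant counts, and the mutant bound was 4.38 without it and 3.53 without WT 1. In null lines the bound without WT 1 was under 1. Neither gene was called by edgeR in the fit of all 7 lines. In mutant against WT, DESeq2 called both, and edgeR with only the groups compared called Itgb8. Itga5, the fibronectin receptor chain, and Itgb5 overlapped between groups, with Itga5 at 71.0 to 140.8 CPM in mutant and 71.9 and 126 CPM in null lines, against 66.2 and 87.8 CPM in WT lines. Itga8 was at or below 2.54 CPM in every line.

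The 4 collagen-binding alpha chains were all low. None was called by edgeR in the main fit (all 7 lines, default filter, legacy form). In mutant against WT, edgeR called Itga2 without the filter and with the newer quasi-likelihood form, and Itga1 with only the groups compared. DESeq2 called Itga1 and Itga2 in mutant against WT and Itga1 in null against WT. Itga2, the alpha2 chain of the epithelial collagen receptor, had 5.25, 1.04 and 0.918 CPM in the mutant lines and 7.73 and 14.6 CPM in the null lines, against 18.8 and 29.7 CPM in the WT lines. The mutant lines were below the null lines and these below the WT lines, and the log2 fold change of -3.33 ± 0.826 in mutant against WT just missed the threshold (edgeR adjusted p = 0.0587). Itga1, the chain that prefers collagen IV, had 4.01, 1.76 and 4.54 CPM in the mutant lines and 0.304 and 9.64 CPM in the null lines, against 0.0340 and 0.162 CPM in the WT lines. With 3 counts over both WT lines, the mutant level was 48.3-fold higher (exact 95% interval 16.4 to 235) and the null level 62.0-fold higher (21.0 to 303). Null 3 held 254 of the 264 null counts, and without it the null ratio was 4.23. Leaving out WT 1 or WT 2 gave 21.4 and 102 for mutant and 27.5 and 131 for null lines, and without null 1 the null ratio was 134. Itga11, a chain of fibroblast collagen receptors, had 0 counts in WT, mutant 2 and null 1. It was at 4.33 CPM in mutant 1, 0.161 CPM in mutant 3 and 2.28 CPM in null 3, which over each group is at least 22.7-fold higher in mutant and at least 14.1-fold higher in null lines than in WT. Without mutant 1 the mutant bound was 1.14, and without null 3 no null count was left. Without WT 1 the bounds were 6.7 and 4.16. Itga10 lay between 1.26 and 4.41 CPM, and was higher in all mutant and null lines than in WT.

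Of the chains with leukocyte roles, Itgb7, which pairs with alpha4 or alphaE, had 65.3, 200.02 and 96.7 CPM in the mutant lines and 72.1 and 47.3 CPM in the null lines, against 26.3 and 8.69 CPM in the WT lines. All mutant and null lines were above both WT lines, with a log2 fold change of 2.77 ± 0.67 in mutant against WT just short of the threshold (edgeR adjusted p = 0.0552). DESeq2 called Itgb7 in both comparisons with WT. In mutant against WT, edgeR called it without a filter and with the newer quasi-likelihood form. Among 10 leukocyte markers, Cd3e was at 0 in every line, and their summed level was 49.8 to 94.4 CPM in mutant and 23.8 and 32.8 CPM in null lines, against 74.5 and 79.4 CPM in WT lines. Nearly all of that sum was Cd68, at 48.1, 70.4 and 91.8 CPM in the mutant lines and 32.1 and 22.5 CPM in the null lines, against 74.1 and 78.9 CPM in the WT lines, while Ptprc, the pan-leukocyte antigen, was at or below 0.0609 CPM in every line. Itgb2, the beta chain of leukocyte integrins, had 0.875, 0.427 and 0.505 CPM in the mutant lines and 2.43 and 0.721 CPM in the null lines, against 2.11 and 0.812 CPM in the WT lines. Itga9, a tenascin receptor chain, was at or below 1.25 CPM in every line.

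**Figure D4:**
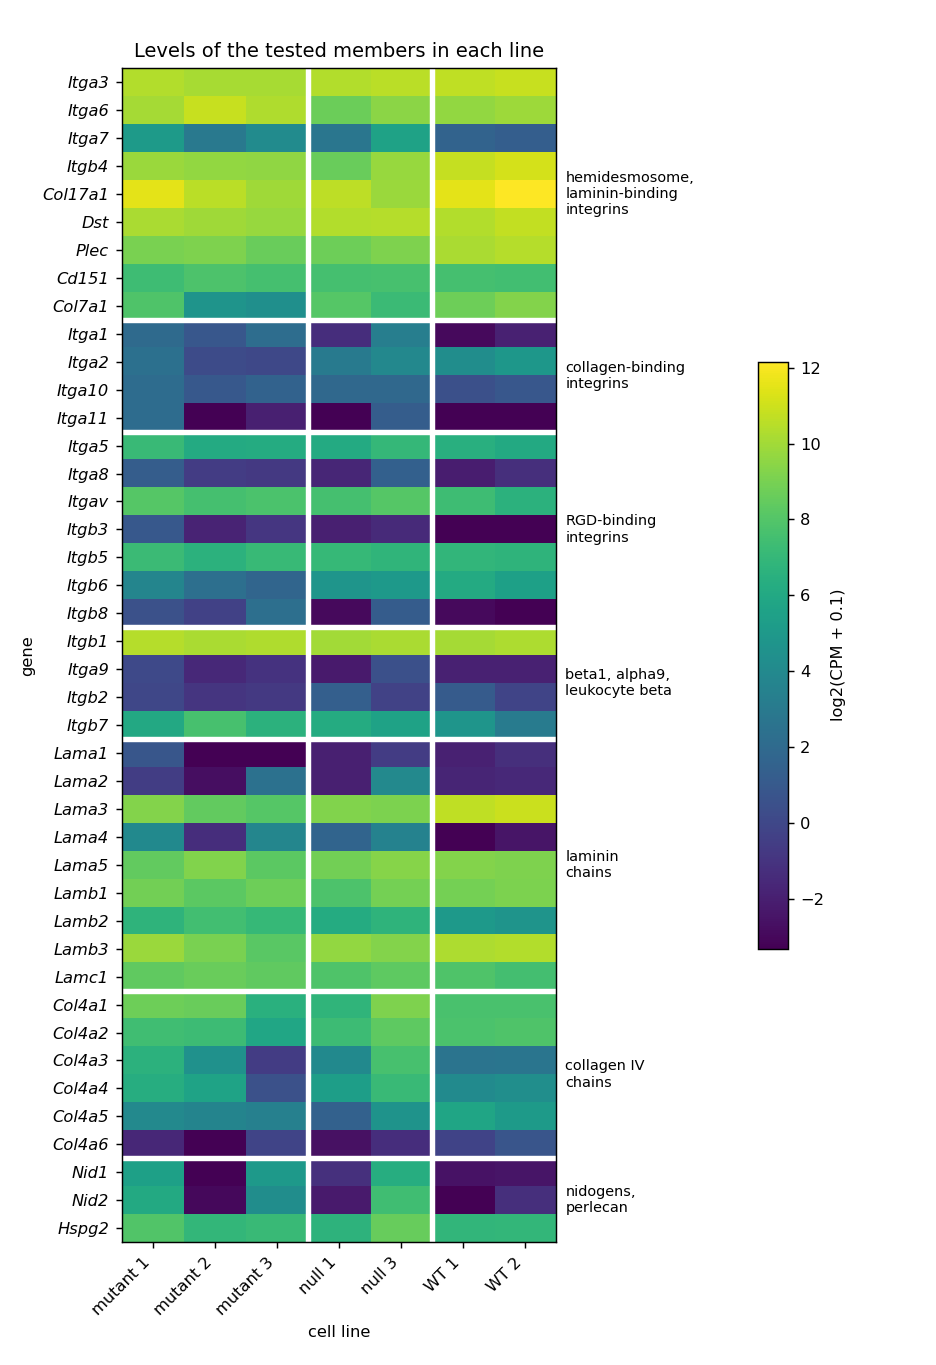
Heat map of log2 CPM, with 0.1 CPM added, of the 42 tested genes (down the page, by role) in the 7 lines (across, mutant, null, WT). Itga3, Itga6, Itgb1, Itgb4, Col17a1, Dst, Lama3 and Lamb3 are among the brightest genes, and Nid1, Nid2 and Lama4 vary widely between lines of the same group.

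None of the 6 collagen IV chains was called by edgeR in the fit of all 7 lines, nor by DESeq2, and Col4a1, Col4a3 and Col4a4 varied several-fold between lines of a group. Col4a1 had 429, 399 and 90.6 CPM in the mutant lines and 109.6 and 572 CPM in the null lines, against 212 and 214 CPM in the WT lines, and Col4a2 had 171, 157 and 56.7 CPM in the mutant lines and 159 and 313 CPM in the null lines, against 214 and 238 CPM in the WT lines. These chains form the common collagen IV network, and their genes start 21 bases apart on opposite strands of chromosome 8 in the RefSeq table. Col4a3, a chain of the kidney and lung network, had 97.9, 22.9 and 0.574 CPM in the mutant lines and 16.1 and 203 CPM in the null lines, against 6.19 and 6.41 CPM in the WT lines. Col4a4 had 80.8, 49.7 and 1.31 CPM in the mutant lines and 41.5 and 145 CPM in the null lines, against 16.9 and 20.3 CPM in the WT lines. Both were highest in null 3, next highest in mutant 1 and lowest in mutant 3, so the mutant lines lay on both sides of WT. Col4a5, whose start is 1343 bases from that of Col4a6 on chromosome X, had 15.2, 12.6 and 10.6 CPM in the mutant lines and 2.65 and 24.9 CPM in the null lines, against 53.9 and 35.0 CPM in the WT lines. It was below WT in all mutant and null lines, with a log2 fold change of -1.80 ± 0.773 in mutant against WT that did not pass in the fit of all 7 lines. Leaving out each library in turn gave -2.07 to -1.44. Col4a6 was at or below 1.62 CPM in every line.

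Nidogens, which bridge laminin and collagen IV, were present in 3 lines and nearly absent from 4. Nid1 had 45.1, 0 and 32.8 CPM in the mutant lines and 0.335 and 78.9 CPM in the null lines, against 0.0680 and 0.0812 CPM in the WT lines. Nid2 had 66.5, 0.0237 and 18.8 CPM in the mutant lines and 0.122 and 169 CPM in the null lines, against 0 and 0.325 CPM in the WT lines. The lines with both genes were mutant 1, mutant 3 and null 3, and mutant 2, null 1 and the WT lines stood at or below 0.335 CPM. Over each group Nid1 was 376-fold higher in mutant than in WT lines (exact 95% interval 129 to 1824) and 491-fold higher in null lines (168 to 2382), with 3 counts over both WT lines. Null 3 held 2079 of the 2090 null counts, and the null ratio was 4.65 without it and 1097 without null 1. The mutant ratio was 232 without mutant 1. The edgeR test did not call it in either comparison (adjusted p = 0.183 and 0.252), while DESeq2 called it in both.

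Mutant 1, mutant 3 and null 3 were also the 3 lines with the highest summed level of fibroblast markers. Counts were present for 15, 12 and 14 of the 15 markers in mutant 1, 2 and 3 and for 12 and 14 of them in the null lines, against 7 and 11 in the WT lines. Single markers did not all follow the sum. Thy1 and Fap were at or below 0.797 CPM in every line. Postn had 293, 0.0475 and 0.115 CPM in the mutant lines and 0.183 and 58.0 CPM in the null lines, against 0.136 and 0.406 CPM in the WT lines. The defining marker Lum was at 0 in all lines but mutant 1, where it was barely detected at 0.0203 CPM. Fap was at the same level in mutant 1, so the 15 markers with counts there include genes near 0. Col3a1 had 148, 0.214 and 183 CPM in the mutant lines and 0.0913 and 276 CPM in the null lines, against 0 and 1.62 CPM in the WT lines. Of 12 fibroblast markers tested, 1 was called higher in mutant lines than in WT, beside 3.3% of all genes. It was Twist1, a transcription factor (log2 fold change 1.54), with 31.2, 54.5 and 36.8 CPM in the mutant lines and 13.3 and 19.8 CPM in the null lines, against 13.1 and 15 CPM in the WT lines. The part of fibroblast-like cells in the nidogen, Lama4, Itga11 and collagen IV levels was not tested. Hspg2, which encodes perlecan, had 248, 122 and 146 CPM in the mutant lines and 101 and 384 CPM in the null lines, against 118 and 124 CPM in the WT lines, highest in null 3 and mutant 1.

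**Figure D5:**
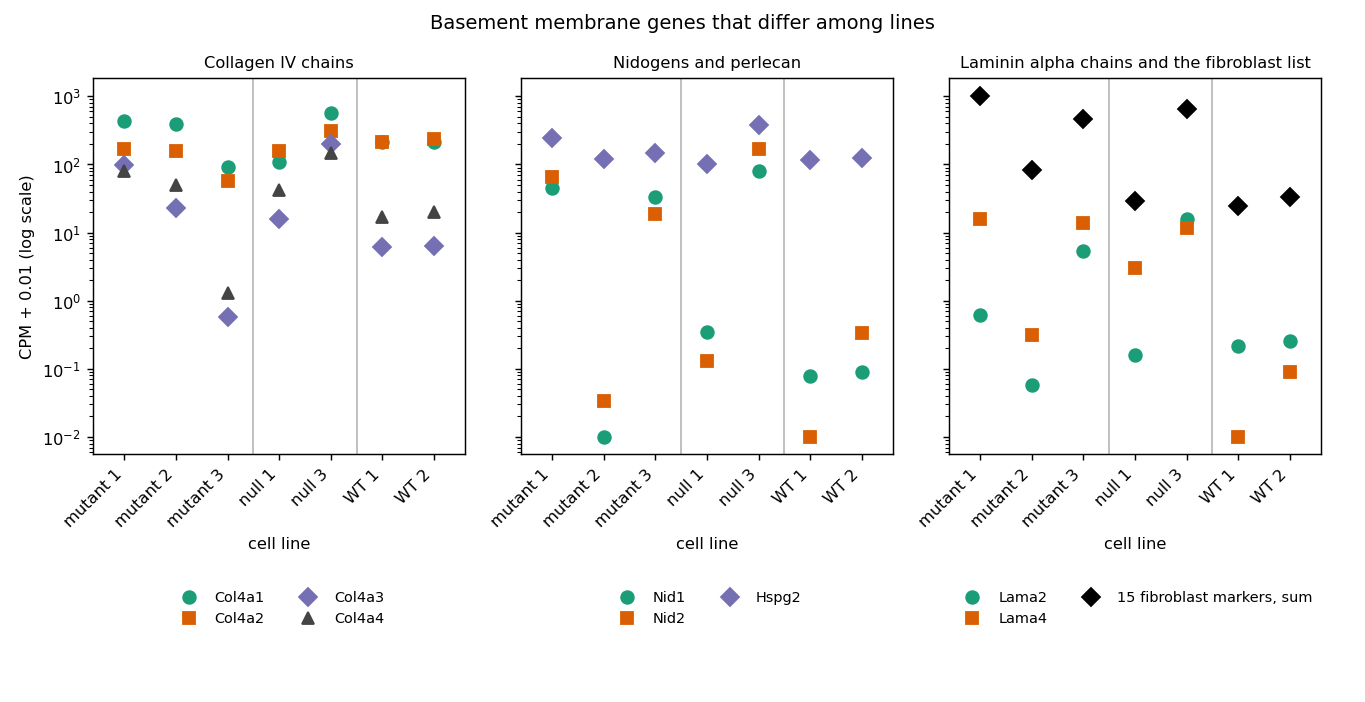
Levels in CPM, with 0.01 CPM added and on a log axis, of basement membrane genes that differed among lines, with the summed fibroblast markers, in the 7 cell lines. Nid1, Nid2 and the sum of the fibroblast markers are higher in mutant 1, mutant 3 and null 3 than in the other lines.

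Between mutant and null lines, which share the 4NQO label, 0 of the 42 genes were called by edgeR's quasi-likelihood test, beside 0% of all genes. At an unadjusted p under 0.05 there were 3 (7.14%, beside 14% of all genes), and DESeq2 called 2, Itga6 and Itgb6, beside 4.39% of all genes. The lines did not overlap for 5 genes (11.9%, beside 31.1% of all genes). All mutant lines lay above both null lines for Itga6 and Lamc1, and below them for Dst, Itga2 and Itgb6. The log2 fold change was 1.32 ± 0.337 for Itga6 (edgeR adjusted p = 0.275), -2.07 ± 0.571 for Itgb6 (edgeR adjusted p = 0.287) and -2.21 ± 0.804 for Itga2 (edgeR adjusted p = 0.317). For Plec it was 0.01 ± 0.233 and for Lama3 -0.47 ± 0.347. The median over the 42 was -0.20, beside 0.02 over all genes.

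Genes that act with integrins were read from lists of known members. Of 26 cytoplasmic adhesion adaptors tested, 0 were higher and 2 lower in mutant lines than in WT, beside 3.3% and 4.13% of all genes. Their median log2 fold change was -0.07, beside 0.08 over all genes. Fermt1 (kindlin-1), the epithelial activator of integrins, had 26.6, 7.31 and 7.82 CPM in the mutant lines and 36.3 and 45.4 CPM in the null lines, against 105 and 168 CPM in the WT lines, a log2 fold change of -3.29 in mutant against WT (edgeR adjusted p = 0.0333). Ptk2b, a kinase related to focal adhesion kinase, had 21.5, 15.4 and 27.1 CPM in the mutant lines and 20.2 and 26.6 CPM in the null lines, against 58.2 and 63.6 CPM in the WT lines (log2 fold change -1.51 in mutant against WT, edgeR adjusted p = 0.0324). Both were lower in all mutant and null lines than in both WT lines.

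Of 15 other matrix receptors tested, 1 was lower and 0 higher in mutant against WT, beside 4.13% and 3.3% of all genes. Their median log2 fold change was -0.30. Sdc1, the epithelial proteoglycan syndecan-1, had 909, 798 and 894 CPM in the mutant lines and 1459 and 1531 CPM in the null lines, against 1839 and 2009.5 CPM in the WT lines (log2 fold change -1.15 in mutant against WT, edgeR adjusted p = 0.0229). Of 19 other basement membrane proteins and integrin ligands tested, 1 was lower and 0 higher, beside the same shares of all genes. Their median was 0.36. Grip1, a scaffold protein needed to place the Fras1 and Frem proteins of the basement membrane, had 9.93, 12.6 and 11.8 CPM in the mutant lines and 11 and 15.3 CPM in the null lines, against 37.6 and 50.8 CPM in the WT lines (log2 fold change -1.95 in mutant against WT, edgeR adjusted p = 0.0212). Of 10 basal epithelial markers tested, 2 were lower in mutant lines, beside 4.13% of all genes. They were Krt5 (log2 fold change -2.53) and Epcam (-2.07). The lower sum of this list came mostly from Krt5, Krt14 and Krt6a, while mutant and WT lines overlapped for Krt15, Trp63, Sox2 and Pitx1. Krt15 had 4.76, 94.1 and 17.0 CPM in the mutant lines and 45.5 and 2.09 CPM in the null lines, against 48.0 and 65.0 CPM in the WT lines. Trp63 had 299, 296 and 441 CPM in the mutant lines and 305 and 168 CPM in the null lines, against 281 and 412 CPM in the WT lines. The log2 fold change in mutant against WT was 0.74 for Sox2 and 0.10 for Pitx1, and in null against WT it was 0.49 for Pitx1, -0.11 for Cdh1 and -0.18 for Epcam, none of them called. The part of the lower keratin level in the levels of Plec, Lama3, Itgb4 and Itgb6 was not tested. No gene of these lists was called in null against WT or in mutant against null.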

How the data were processed

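Messenger RNA of 7 cell lines was sequenced with a stranded kit, as the labels' protocols describe. The authors deposited one table of raw counts for each gene name. Alignment was with STAR 2.5.1b to build mm9, per the submitters' processing notes. For the counter, its strand setting and the annotation, the entry is "not given in the sources used here", and overlapping genes such as Col4a1 and Col4a2 carry that uncertainty. Spike-ins (92 names, 0 counts) were left out. Groups and numbers come from the sample titles. Since the labels do not tie lines to animals, p-values measure the spread between lines. No library was a copy of another: chi-square per degree of freedom between replicates was 53.0 to 239.9.

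The test was edgeR 4.0.16 in R 4.3.3 (quasi-likelihood F test, legacy form, TMM factors, default expression filter by group, Benjamini-Hochberg adjustment over 13768 genes, threshold 0.05), with all 7 libraries in one fit (common biological coefficient of variation 0.485), and was checked on simulated data. Each standard error is the fold change divided by the square root of F. Where a group had 0 counts, 3 counts over the group served as its floor, and ratios on 1 to 3 counts have exact 95% intervals. Floors and intervals cover counting error only. Levels per kilobase use the longest protein-coding transcript of GENCODE vM21. The members and lists were chosen with earlier results of these data known. Values in every line are given for members called in any comparison and for the 2 members with the smallest p in each of 7 roles, others by range, or with values where lines do not overlap, and of other lists called genes are named. Single markers that were not called are named only for their levels and were chosen after their values were seen. Some further members are given in full, chosen after their values were seen. Alternatives were RLE factors, no filter, DESeq2 1.42.0, only the groups compared, the newer quasi-likelihood form, blocking on replicate number, and each library left out in turn.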

Additional observations from a re-analysis of the deposited data

Results flagged for a closer look

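Itga6, the alpha6 integrin chain, differed from WT in opposite directions in the 2 genotypes without overlap of lines. Its log2 fold change was 0.68 in mutant against WT and -0.63 in null against WT, with all 3 mutant lines above and both null lines below the WT lines. The difference between the 2 effects, which is mutant against null, was 1.32 ± 0.337 (SE) and was not called by edgeR's quasi-likelihood test (adjusted p = 0.275). DESeq2 gave 1.29 with an adjusted p of 0.00383. The log2 fold change under all alternatives lay between 0.99 and 1.76. No group had 4 or more lines, so single lines were not screened for outliers.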

How the results depend on the processing

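In mutant against WT, 4 members were called. Calls numbered 18 with DESeq2 (10 higher, 8 lower, beside 23.2% of all genes), 8 with only the groups compared (11.3%), 6 without a filter (6.12%), 6 with the newer quasi-likelihood form (9.7%) and 4 with RLE factors (7.58%), and the 4 were among them each time. Leaving out each mutant library in turn gave 0 to 8, with 6 to 1420 calls over all genes. Beside the 4 in mutant against WT, DESeq2 called Itga1, Itga2, Itga3, Itga7, Itgav, Itgb3, Itgb4, Itgb7, Itgb8, Dst, Lama4, Lamb3, Lamc1 and Nid1. The fits without a filter and with the newer form added Itga2 and Itgb7. With only the groups compared, Itga1, Itgb4, Itgb8 and Col4a5 were added. In null against WT, DESeq2 called 10 members (Col17a1, Plec, Lama3, Lama4, Lamb2, Itga1, Itga7, Itgb4, Itgb7 and Nid1), and in mutant against null 2. The other settings called 0 in both comparisons. With 3 or fewer counts over both WT lines, depth limits the ratios of Nid1, Lama4, Itgb8 and Itga1.

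With a replicate block, 0 members were called in mutant against WT, and 13 were at an unadjusted p under 0.05. Deviations of same-numbered lines from their group means had correlations of -0.018 and -0.018 for mutant and WT. They were 0.138 for the single number shared by null and WT, and -0.405 and -0.021 for mutant and null. In a group of 2 lines the deviations mirror each other, so these values cannot show or exclude pairing. The labels give only a shared number. Under the block, the mutant against null log2 fold changes that turned round were Plec -0.10, Itga1 1.12, Col4a5 0.71, Nid1 2.54 and Nid2 2.00.

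The Plec value for mutant against null, near 0, was -0.015 with RLE factors or DESeq2, -0.0067 without a filter and -0.0066 with only the groups compared. Itgb2 in null against WT was -0.0081 with the newer form. Leaving out 1 library in turn, mutant against null ranged from -0.18 to 0.23 for Plec, -0.077 to 1.11 for Itgb4, -1.48 to 3.49 for Itga1, -0.95 to 2.28 for Col4a5, -3.24 to 1.34 for Col4a3, -1.60 to 6.27 for Nid1 and -3.18 to 7.83 for Nid2, and null against WT ranged from -1.03 to 0.96 for Itgb2. For Itga1, Col4a5, Col4a3, Nid1 and Nid2 the upper end was the fit without null 3. The cause was not tested for any of these.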

Other observations

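Markers of other cell types were read in the same libraries. The summed level of 10 endothelial markers was 17.8, 9.44 and 24.5 CPM in the mutant lines and 24.7 and 36.1 CPM in the null lines, against 16.2 and 17.6 CPM in the WT lines, with Emcn at 0 in every line, and 0 of 6 tested were called in mutant against WT. For 10 muscle markers it was 877, 701 and 235 CPM in the mutant lines and 96.6 and 572 CPM in the null lines, against 268 and 451 CPM in the WT lines. Most of that sum was Acta2 and Smtn. Acta2 had 768, 625 and 157 CPM in the mutant lines and 28.3 and 350 CPM in the null lines, against 151 and 279 CPM in the WT lines. The skeletal muscle factors Myod1 and Myog were at 0 in 5 lines, at 0.61 and 0.122 CPM in mutant 1 and at 23.0 and 29.0 CPM in null 3. Acta1 was at 23.4 CPM in null 3 but also at 12.4 and 22.2 CPM in the WT lines. Of 8 muscle markers tested, 1 was lower in mutant lines than in WT, beside 4.13% of all genes. It was Smtn, with 61.0, 59.8 and 67.2 CPM in the mutant lines, against 104 and 149 CPM in the WT lines.

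For 10 Schwann cell and melanocyte markers the sum was 55.4, 61.9 and 60.5 CPM in the mutant lines and 86.9 and 78.4 CPM in the null lines, against 95.4 and 79.6 CPM in the WT lines, and Sox10, Dct and Tyr were at 0 in every line. Of 7 tested, Pmp22 was called higher and Mbp lower in mutant lines than in WT, beside 3.3% and 4.13% of all genes. Pmp22, a membrane protein of myelin also present outside nerve, had 12.1, 22.7 and 19.1 CPM in the mutant lines and 1.76 and 9.19 CPM in the null lines, against 0 and 0.0812 CPM in the WT lines. Of the 3 leukocyte markers tested, 0 were called in mutant against WT. None of the marker genes was called in null against WT or in mutant against null.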
